A study of Mus musculus with 6 samples.

Results

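The genes described are 6 regulators of mRNA decay and deadenylation: Zfp36, Zfp36l1, Zfp36l2, Zc3h12a, Btg1 and Btg2. They were chosen by name and with earlier results of these data known. Every probe annotated to 1 of these symbols alone was taken. That gave 6 of the 16281 probes in the table, for 5 of the 6 genes (10698 genes in all had such a probe), and 4 probes had a value on every array. No probe carried the symbol Zc3h12a. The cells were RAW 264.7, a mouse macrophage line. Treated cells received lipopolysaccharide (LPS, the endotoxin of Gram-negative bacteria, 100 ng/ml) together with LPS-binding protein (LBP, 100 pM), a serum protein that hands LPS to its receptor, and their total RNA was compared with that of untreated cells, both after 2 h of culture. Each of 6 two-colour arrays carried both RNAs, with the treated RNA in Cy5 on 3 arrays and in Cy3 on the other 3, and the labels give the arrays set numbers 1 to 3 within each orientation. No sample with LPS or LBP alone was analysed here, and nothing in the labels says that the sets were separate cultures, so the spread between them may be technical.

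Cells end an inflammatory response partly by destroying its mRNAs. The ZFP36 proteins, of which ZFP36 is also called tristetraprolin or TTP, are CCCH zinc finger proteins that bind AU-rich elements in 3′ untranslated regions of cytokine mRNAs and recruit the CCR4-NOT deadenylase complex, which shortens the poly(A) tail. In macrophages TTP is itself a product of the LPS response, and the kinases p38 and MK2 hold it in a phosphorylated, less active form. Regnase-1, the product of Zc3h12a, is an endonuclease that cuts stem-loops in 3′ untranslated regions. BTG1 and BTG2 are antiproliferative adaptors that bind the deadenylase subunits of CCR4-NOT and promote deadenylation more generally.

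Each deposited value is a log2 ratio of one channel over the other. Such ratios carry no level, so neither the expression of these genes relative to each other nor the identity of the cells can be read from them. All ratios below are of treated over untreated, with the sign of the arrays with treated RNA in Cy3 turned. A positive ratio therefore stands for more transcript in treated cells. The direction of the deposited ratio, Cy5 over Cy3, is the likely one from the labels and is stated by no source. Il1b, Tnf, Cxcl10, Ccl4, Il10 and Ptgs2, which LPS is known to induce, were positive on all 3 arrays of the first kind and negative on all 3 of the second before the turn. "Rose" and "fell" refer to an adjusted p under 0.05 by limma over all 11231 features.

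Transcripts of 3 of the 4 genes with complete probes rose after 2 h with LPS and LBP and 1 fell. Zfp36l1 rose 2.38-fold on its complete probe, Btg2 2.05-fold and Zfp36 1.80-fold, while Zfp36l2, a paralog of Zfp36 and Zfp36l1, fell 1.25-fold. A second Zfp36l1 probe, with values on 4 arrays, had a mean log2 ratio of 0.00. The fall of Zfp36l2 lost its call in 7 of 21 other fits. Btg1 had no complete probe, and its ratios lay on both sides of 0. Among all features, 14.8% passed the same threshold, 7.35% higher and 7.45% lower. The median log2 ratio of all features was -0.00, with quartiles of -0.08 and 0.07.

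The stretches of 250 bases before the RefSeq start of 4 genes are printed because 3 of them stand upstream of the transcripts that rose and the 4th, that of Btg1, before the paralog of Btg2. They come from the RefSeq promoter table of GRCm38.p6, run 5′ to 3′ on the gene's strand, and carry in capitals the matches to the motifs searched. Of the 6 genes, 5 had an entry in that table.
Zfp36, chr7:28379229-28379478, minus strand: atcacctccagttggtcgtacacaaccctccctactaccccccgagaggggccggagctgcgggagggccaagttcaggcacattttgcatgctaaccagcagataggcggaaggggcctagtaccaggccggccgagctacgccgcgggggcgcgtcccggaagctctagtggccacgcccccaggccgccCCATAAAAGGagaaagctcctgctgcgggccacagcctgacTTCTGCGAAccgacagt
Zfp36l1, chr12:80113014-80113263, minus strand: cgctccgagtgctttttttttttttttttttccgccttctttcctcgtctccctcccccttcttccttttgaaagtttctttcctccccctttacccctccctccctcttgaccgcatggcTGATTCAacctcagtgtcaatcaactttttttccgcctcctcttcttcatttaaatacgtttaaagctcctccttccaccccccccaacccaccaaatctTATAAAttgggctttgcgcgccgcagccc
Btg2, chr1:134079156-134079405, minus strand: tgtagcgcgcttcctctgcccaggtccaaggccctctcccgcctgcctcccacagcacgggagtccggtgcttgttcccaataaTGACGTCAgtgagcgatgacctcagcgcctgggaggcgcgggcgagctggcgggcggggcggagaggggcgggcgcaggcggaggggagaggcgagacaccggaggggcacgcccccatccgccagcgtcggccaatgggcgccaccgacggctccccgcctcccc
Btg1, chr10:96616751-96617000, plus strand: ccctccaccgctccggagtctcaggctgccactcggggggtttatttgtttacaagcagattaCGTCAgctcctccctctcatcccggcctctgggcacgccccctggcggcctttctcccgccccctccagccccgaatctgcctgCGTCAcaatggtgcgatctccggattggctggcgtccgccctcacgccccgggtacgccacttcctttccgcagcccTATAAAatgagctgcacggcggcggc

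Both strands were searched for 6 motifs: the NF-κB site, the serum response element (CArG box, the site of serum response factor), the TATA box core TATAAA, the CREB core site TGACG, the AP-1 site TGANTCA and the GAS element TTCNNNGAA (the STAT site). In Zfp36 a CArG box lay 58 to 49 bases before the start and a GAS element 17 to 9 bases before it. Of 32851 promoters, 1.47% held a CArG box and 7.02% a GAS element. In Zfp36l1 an AP-1 site lay 129 to 123 bases and a TATA box core 29 to 24 bases before the start, motifs that 6.75% and 12.4% of promoters held.

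In Btg2 CREB core sites on opposite strands, at 166 to 162 and at 163 to 159 bases before the start, overlapped to form the palindrome TGACGTCA. The share of promoters with this longer element was not counted. Btg1 held CREB core sites at 187 to 183 and at 103 to 99 bases before the start, as well as a TATA box core at 26 to 21. A CREB core site was in 17.8% of promoters. No NF-κB match by this motif was in the windows of these 4 genes, nor in that of Zc3h12a, against 7.25% of all promoters. A match is a match of letters and nothing more, and no binding was measured. The GC content was 64.8% for Zfp36, 48.4% for Zfp36l1, 73.2% for Btg2 and 65.2% for Btg1, with a median of 52.4% over all promoters.

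**Figure D1:**
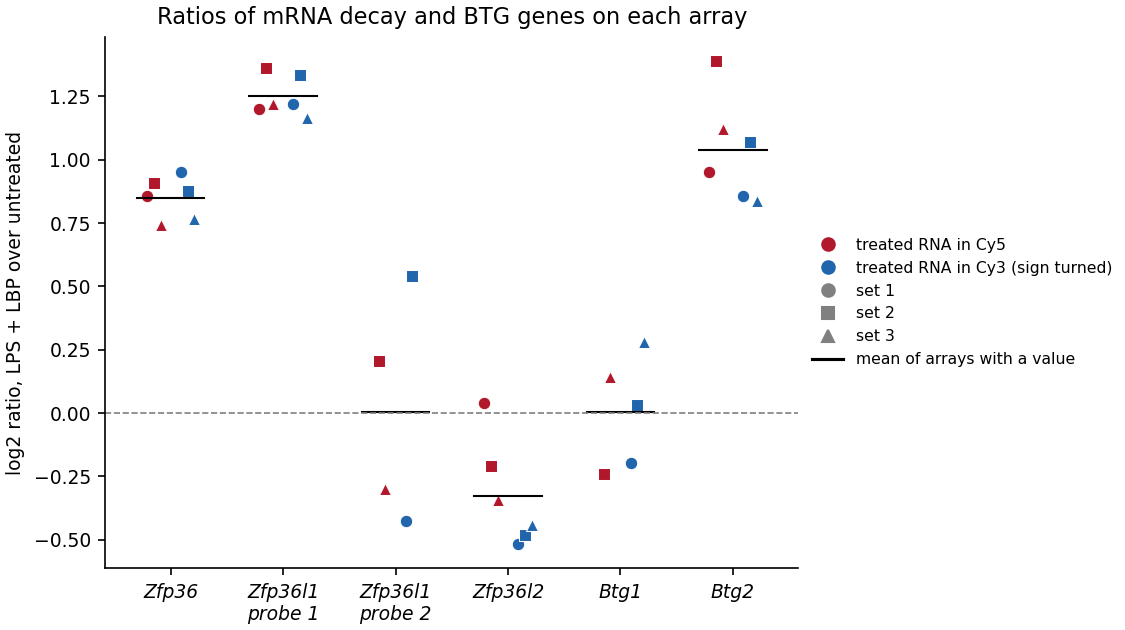
Log2 ratio of treated over untreated cells (vertical axis) for each probe of the 5 measured genes (horizontal axis). Points are single arrays, coloured by the dye of the treated RNA and shaped by set, and bars are means over the arrays with a value. Zfp36, Btg2 and the first Zfp36l1 probe lie above 0 on all 6 arrays, Zfp36l2 lies below 0 on 5 of 6, and Btg1 and the second Zfp36l1 probe straddle 0.

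Zfp36 encodes TTP, the founding member of its family. Its ratios were 0.86, 0.91 and 0.74 in sets 1, 2 and 3 on the arrays with treated RNA in Cy5, and 0.95, 0.88 and 0.77 on the swapped arrays. All 6 arrays were above 0, within a range of 0.21 between the lowest and the highest, and set 3 was the lowest in both orientations. The mean was 0.85 ± 0.08 (SD, n = 3 sets), with a 95% interval of 0.73 to 0.98 and an adjusted p of 0.000207 by limma, a rise of 1.80-fold (interval 1.65 to 1.97). Of all features, 1.33% had a higher mean ratio. Against a change of 1.5-fold in place of 0, its adjusted p was 0.0717.

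Zfp36l1, which encodes an AU-rich element binding protein of the same family, had a pair of probes that did not show the same ratio. The complete probe gave 1.20, 1.36 and 1.22 in sets 1, 2 and 3 with treated RNA in Cy5, and 1.22, 1.34 and 1.16 on the swapped arrays. Set 2 was the highest in both orientations, and sets 1 and 3 lay close together. The mean was 1.25 ± 0.09 (SD, n = 3 sets; 95% interval 1.12 to 1.38; limma adjusted p = 4.11e-05), or 2.38-fold, and 0.792% of features stood higher. On this probe it was the largest rise among the 4 genes tested.

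The second Zfp36l1 probe had values on 4 arrays: 0.21 and -0.30 in sets 2 and 3 with treated RNA in Cy5, and -0.43 and 0.54 in sets 1 and 2 on the swapped arrays. It was above 0 on both arrays of set 2 and below 0 on the other 2 arrays, with a mean of 0.00. None of its values overlapped those of the complete probe. With its values averaged in where present, Zfp36l1 stood at 0.82 (adjusted p = 0.000719), and with its zeros kept as ratios of 0, at 0.63 (adjusted p = 0.0806), in both cases below Zfp36 and Btg2. The 2.38-fold rise is therefore that of 1 probe. Signal over background was not given, and which part of the transcript either probe reads was not tested.

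Zfp36l2, the third paralog, binds the same class of elements. Its ratios were 0.04, -0.21 and -0.34 in sets 1, 2 and 3 with treated RNA in Cy5, and -0.52, -0.48 and -0.44 on the swapped arrays. The swapped arrays were the lower ones in every set, and the array of set 1 with treated RNA in Cy5 was the one above 0. The mean was -0.33 ± 0.08 (SD, n = 3 sets; 95% interval -0.45 to -0.20; limma adjusted p = 0.00861), a fall of 1.25-fold, and 3.21% of features stood lower. The set means average over the gap between the orientations, and the SD over the 6 single arrays was 0.21. With only the arrays with treated RNA in Cy5 the mean was -0.17 (adjusted p = 0.315), and with only the swapped ones -0.48 (adjusted p = 0.0245). The call was lost in 7 of 21 other fits, and the direction held in all 21: without set 3 the value was -0.29 (adjusted p = 0.113), and without the array of set 2 with treated RNA in Cy5 -0.37 (adjusted p = 0.0743). Without the swapped array of set 1 it was -0.23 (adjusted p = 0.261), and without that of set 2 it was -0.28 (adjusted p = 0.0841).

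On complete probes, the mean ratios of the ZFP36 genes differed in direction. Zfp36l2 was nevertheless above 0 on the array of set 1 with treated RNA in Cy5, at 0.04. The second Zfp36l1 probe was below 0 on 2 of its 4 arrays. Zfp36 stood above Zfp36l2 on 6 of 6 arrays, by 0.82 to 1.47, and by 1.18 ± 0.05 over the sets (SD, n = 3). Zfp36l1 on its complete probe stood above Zfp36l2 by 1.58 ± 0.12 and above Zfp36 by 0.40 ± 0.08, in each case on 6 of 6 arrays. These are differences between log2 ratios within an array and were not tested further. Whether the probes tell the paralogs apart was not tested.

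Btg2 encodes the inducible member of the BTG pair and is known as an early response gene. Its ratios were 0.95, 1.39 and 1.12 in sets 1, 2 and 3 with treated RNA in Cy5, and 0.86, 1.07 and 0.84 on the swapped arrays. All 6 arrays were above 0, set 2 was the highest in both orientations, and each swapped array was below its partner. The mean was 1.04 ± 0.17 (SD, n = 3 sets; 95% interval 0.87 to 1.21; limma adjusted p = 0.000339), or 2.05-fold (interval 1.82 to 2.31), and 1.06% of features stood higher. Its SD between sets was above that of 86.6% of features. Btg2 kept its call in all 21 other fits, with values between 0.92 and 1.15.

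Btg2 and the complete Zfp36l1 probe lay close to each other. Their difference was 0.21 ± 0.09 (Zfp36l1 minus Btg2, SD, n = 3 sets), but on 1 of the 6 arrays Btg2 was the higher one. Btg2 minus Zfp36 was 0.19 ± 0.17, again with the opposite sign on 1 array.

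Btg1, the paralog of Btg2, had a value on 5 arrays: -0.24 and 0.14 in sets 2 and 3 with treated RNA in Cy5, and -0.20, 0.03 and 0.28 in sets 1, 2 and 3 on the swapped arrays. It was above 0 on 3 arrays and below on 2, with a mean of 0.00. Set 3 was positive in both orientations, set 2 had opposite signs, and set 1 had a value on 1 array. With missing values allowed, the fit gave -0.03 (95% interval -0.25 to 0.19, adjusted p = 0.866), where set 1 rests on 1 array. The means of Btg2 and Zfp36l2 lie outside this interval, while the Zfp36l2 interval overlaps it. The highest Btg1 array was below the lowest Btg2 array.

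**Figure D2:**
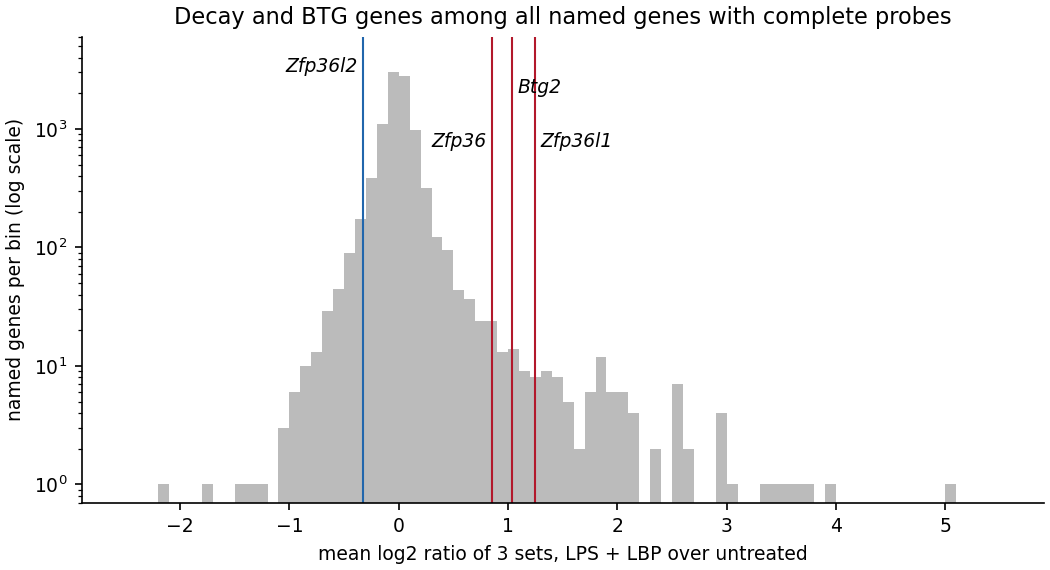
Number of named genes (vertical axis, log scale) by mean log2 ratio of 3 sets, treated over untreated (horizontal axis, bins of 0.1), for the 9472 named genes with complete probes. Vertical lines mark the 4 tested genes: Zfp36, Btg2 and Zfp36l1 at 0.85, 1.04 and 1.25 lie in the sparse upper tail, and Zfp36l2 at -0.33 lies on the lower flank.

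A dye effect keeps its sign when the dyes are swapped, so the mean of the deposited ratios over both orientations shows how far a probe leaned to Cy5. That lean was -0.01 for Zfp36 and 0.01 for Zfp36l1, against 0.12 for Btg2 and 0.15 for Zfp36l2. The median size over all features was 0.09, and 76.4% of features leaned less than Zfp36l2. The adjusted p of the dye term by limma, a fit added after the data were seen, was 0.155 for Zfp36l2 (0.0296 before adjustment). The adjusted p was at least 0.317 for the other 3 genes, and passed the threshold for 0.499% of features. For Zfp36l2 the lean was about as large as the ratio on the arrays with treated RNA in Cy5, and its part in the lost calls was not tested.

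For each tested gene, the 3 named genes with the closest ratios over the 6 arrays were found among 9471 others, by the root mean square difference of the log2 ratios. For Zfp36 they were Mcl1, a survival gene of the BCL2 family, Stk40 and Slc15a3, at 0.07 to 0.08. For Zfp36l1, on its complete probe alone, they were Tlr2, the receptor of bacterial lipoproteins, Icam5 and Tnfsf9, at 0.11 to 0.12. Zfp36l2 was closest to Pml, Riox1 and Il21r, at 0.11 to 0.13. Btg2 was closest to C9orf72 and Trip10, at 0.09 and 0.12, and then to Slco1c1 at 0.18. The likeness is that of ratios on the same 6 arrays, and is a description.

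Other genes of the decay machinery passed the test at about the share of all features. Lists of 71 further genes covered the ZFP36, Regnase and Roquin families, BTG and TOB proteins, other binders of 3′ untranslated regions, deadenylases with poly(A) binding proteins, decapping factors with XRN1, and the exosome. A test was possible for 38, of which 4 rose, 1 fell and 33 stayed short of the threshold, or 13.2% called against 14.8% of all features. Their median ratio was 0.01. Of the Regnase and Roquin families none was tested.

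The largest of these changes was that of Noct, which encodes nocturnin, a CCR4-related protein first described as a deadenylase. Its ratios were 1.06, 0.94 and 0.94 in sets 1, 2 and 3 with treated RNA in Cy5, and 0.96, 0.91 and 0.86 on the swapped arrays. All lay above 0, and the mean of its pair of probes, 0.94 ± 0.06, was a 1.92-fold rise (limma adjusted p = 9.64e-05). Of these 38 genes it was the 1 that moved more than Zfp36, and the 1 that passed against a change of 1.5-fold (adjusted p = 0.0119). Of the CCR4-NOT subunits, Cnot8, a catalytic deadenylase that BTG proteins bind, fell 1.19-fold (-0.25 ± 0.05, adjusted p = 0.0162), and Cnot4, a ubiquitin ligase subunit, rose 1.15-fold (0.20 ± 0.08, adjusted p = 0.0461). Cnot11 stood at -0.10 ± 0.10 (adjusted p = 0.315). In all, 10 deadenylase and poly(A) binding genes were tested, and 7 of them were not past the threshold.

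Among 4 other BTG and TOB genes, Btg3, an antiproliferative paralog, rose 1.46-fold (0.55 ± 0.02, limma adjusted p = 0.000641), with all 6 arrays between 0.52 and 0.60. Its SD of 0.02 was small beside the 0.17 of Btg2. Tob1 stood at 0.10 ± 0.17 (adjusted p = 0.437), and neither Tob2 nor Btg4 passed. Of the 6 exosome genes tested, Exosc10, a catalytic subunit, rose 1.15-fold (0.20 ± 0.02, adjusted p = 0.0306), and Exosc9 stood at 0.04 ± 0.04 (adjusted p = 0.660). Cnot4, Cnot8 and Exosc10 each lost the call without set 1 (adjusted p = 0.143, 0.0677 and 0.0853) and without set 3 (adjusted p = 0.287, 0.114 and 0.205). Cnot8 lost it in 8 of 21 other fits and Exosc10 in 11 of 20, while Cnot4 lost it with its sign kept in 14 of 21. In 1 further fit Cnot4 changed sign and did not pass either. The rise of Cnot4 came from the arrays with treated RNA in Cy5 (0.48, 0.37 and 0.44 in sets 1, 2 and 3) and not from the swapped ones (0.05, -0.14 and 0.02). It was not past the threshold with the arrays taken singly without a block (adjusted p = 0.259) or with the set as a random block (adjusted p = 0.0551).

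Of 7 other binders of 3′ untranslated regions, none passed by limma (before adjustment, 2 were higher and 0 lower at p under 0.05), the furthest being Pum2 at 0.15 ± 0.09 (adjusted p = 0.127). Of 11 decapping factors and XRN1, none passed either (before adjustment, 1 was higher and 0 lower at p under 0.05). The furthest was Lsm5 at -0.18 ± 0.50 (adjusted p = 0.570), whose sets differed more than its mean. Without set 2, Lsm5 stood at -0.40 and passed (adjusted p = 0.0204).

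In the p38 and MK2 axis, which controls the activity of TTP, 7 genes were tested, of which 2 rose and 1 fell. Among all features 7.35% rose and 7.45% fell. Dusp1, the phosphatase that switches p38 off, rose 1.68-fold (0.75 ± 0.10, limma adjusted p = 0.000411). Mapkapk2, the gene of MK2, rose 1.36-fold (0.45 ± 0.05, adjusted p = 0.00176). Mapk14, the gene of p38α, fell 1.41-fold (-0.50 ± 0.07, adjusted p = 0.00148), with all 6 arrays between -0.58 and -0.38. With zeros kept as ratios of 0, where a further probe enters, it stood at -0.48 and did not pass (adjusted p = 0.168). Ppp2ca, a phosphatase subunit gene, stood at 0.08 ± 0.07 (adjusted p = 0.383). Transcript ratios say nothing of phosphorylation.

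Transcripts that have been reported as TTP targets mostly rose alongside Zfp36. Of 24 tested, without Zfp36 itself, 21 rose, 0 fell and 3 did not pass by limma (before adjustment, 21 were higher and 1 lower at p under 0.05), and their median ratio was 1.58. Among all features 7.35% rose and 7.45% fell. The 21 that rose include Dusp1, which is also counted in the p38 and MK2 axis. The list is made of cytokine and early response genes that LPS is known to induce, so it is not independent evidence of a direction. The furthest were Il1b at 3.98 ± 0.12, Cxcl10 at 3.70 ± 0.26, Myc at 3.42 ± 0.37 and Ccl4 at 3.36 ± 0.17, with adjusted p of at most 2.8e-05. Fos, an AP-1 subunit gene, stood at -0.16 ± 0.05 (adjusted p = 0.0734), and passed as lower with the set as a random block (adjusted p = 0.0208). Of 11 transcripts reported as Regnase-1 targets, 5 rose and 6 did not pass, with a median of 0.17. Il1b, Nfkbiz, Ptgs2 and Il6, which rose, and Cxcl1, which did not pass, are on both lists. The counts of the target lists are therefore not separate results. After Il1b, the furthest were Nfkbiz at 2.61 ± 0.32 (the mean of probes at 1.60 and 3.61), Ptgs2 at 1.32 ± 0.44 and Il6 at 1.14 ± 0.42 (limma adjusted p of at most 0.00399). Tfrc, the transferrin receptor gene, stood at 0.17 ± 0.22 (adjusted p = 0.267). Ptgs2 lost the call without the swapped array of set 2 (0.99, adjusted p = 0.166), with only the arrays with treated RNA in Cy5 (adjusted p = 0.21) and with zeros kept (adjusted p = 0.0839). Il6 lost it without set 3 (adjusted p = 0.0538), with only the swapped arrays (adjusted p = 0.0557) and with zeros kept (adjusted p = 0.0955). Tfrc passed without set 2 (0.29, adjusted p = 0.00707). mRNA stability was not measured.

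**Figure D3:**
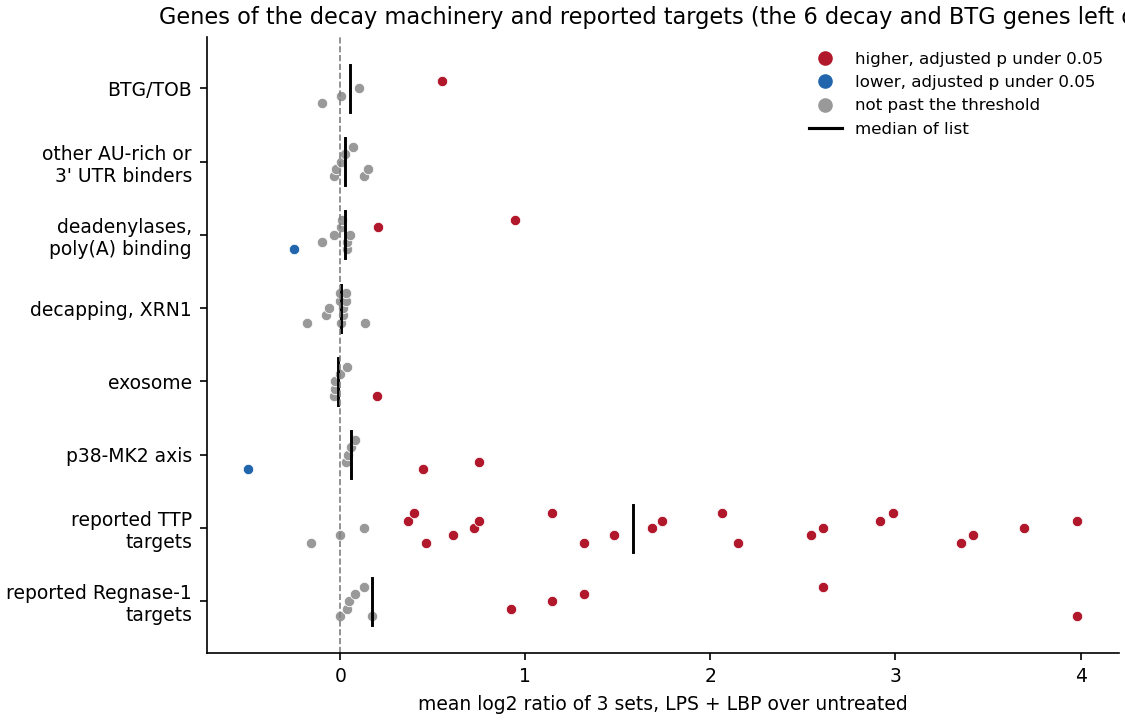
Mean log2 ratio of 3 sets, treated over untreated (horizontal axis), for genes of the decay machinery and reported targets (rows), without the 6 genes described above. Each point is a gene, coloured by its call at an adjusted p of 0.05, and the black bar is the median of the list. Most machinery genes lie close to 0, with Noct at 0.94 and Btg3 at 0.55 apart from them, and the TTP targets spread up to 3.98.

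Marker genes were used as ratios only. Among 7 macrophage markers 2 rose and 2 fell, with a median of 0.00, where 7.35% of all features rose and 7.45% fell. Of 13 markers of lymphocytes, fibroblasts, endothelium and epithelium, 0 passed by limma (before adjustment, 3 were higher and 0 lower at p under 0.05), with ratios from -0.20 to 0.22.

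**Figure D4:**
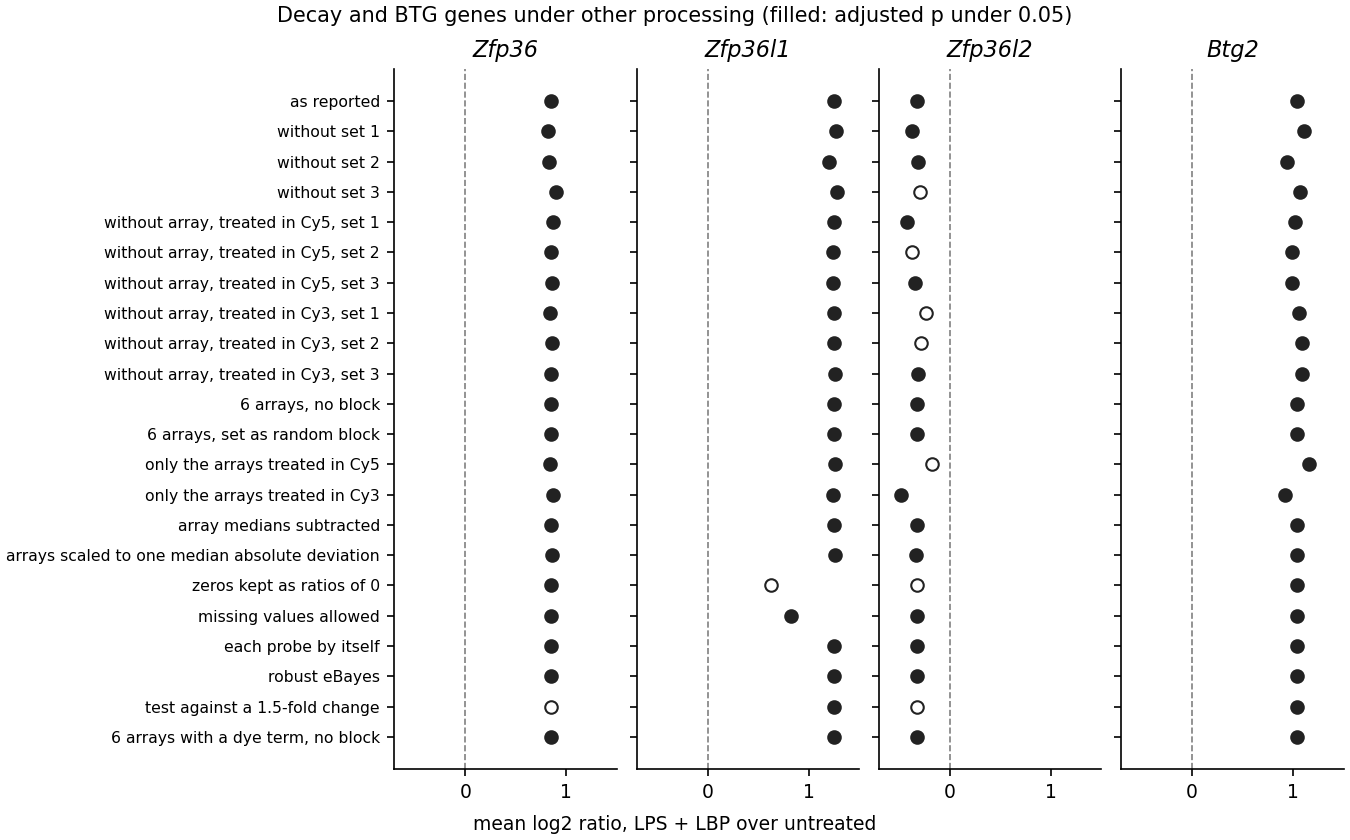
Mean log2 ratio, treated over untreated (horizontal axis), of the 4 tested genes under the reported fit and 21 other fits (rows). Filled points have an adjusted p under 0.05 and open points do not. Btg2 is filled throughout, Zfp36 is open against a 1.5-fold change, Zfp36l1 is open at 0.63 with zeros kept, and Zfp36l2 is open in 7 fits.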

How the data were processed

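Total RNA of LPS- and LBP-treated and untreated RAW 264.7 cells was compared on 6 two-colour arrays, 3 per dye orientation, per the labels. The deposited values are log2 ratios, 1 per probe and array. The log base was inferred: when turned into log10, 87.3% to 92.8% of an array's measured values became numbers of 7 decimals, to 0.001 of the last one. For background correction, normalization and scanner, the sources used here give nothing. Spot signals were not used, and precision is limited by how few arrays there are.

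Exact zeros (10.8% of values) were treated as missing, which left 13224 probes with values on all arrays. Probes were named through the platform annotation (13738 with 1 symbol, 52 with several, 2491 with none), and complete probes of a gene were averaged, giving 11231 features, 9472 of them named genes. Listed genes were matched by gene ID. Signs were turned for arrays with treated RNA in Cy3, the arrays of a set were averaged (n = 3 sets), and limma 3.58.1 under R 4.3.3 tested that mean against 0 (lmFit, eBayes, two-sided, Benjamini-Hochberg over all features, threshold 0.05). Intervals are at 95% from the same fit. Same-numbered arrays deviated together from the means of their orientation before the turn (r = 0.40, 0.43 and 0.14 over features), which with the labels is the basis for pairing them. After the turn, such shared deviations oppose each other, and so does a constant lean of a probe to a dye. The consensus correlation within sets was -0.44, and the part of each in it was not tested.

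Named beside the 6 genes were, per list, up to 4 of the largest changes past the threshold and the largest one not past it, and the 3 genes closest to each tested gene. Other sets, arrays, blocks, dye orientations, scalings, treatments of zeros and probes, variance models and a 1.5-fold threshold were tried. The genes and lists were chosen with earlier results of these data known.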

Additional observations from a re-analysis of the deposited data

How the results depend on the processing

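The direction of Zfp36, Zfp36l1, Zfp36l2 and Btg2 held in all 21 alternatives, and Btg2 kept its call in each. For Zfp36l1, every fit but those with zeros kept or missing values allowed rested on the complete probe alone. Leaving out a set or an array gave 0.82 to 0.90 for Zfp36, 1.20 to 1.28 for Zfp36l1, -0.42 to -0.23 for Zfp36l2 and 0.94 to 1.11 for Btg2. Calls were lost for Zfp36l2 with only the arrays with treated RNA in Cy5 (-0.17), with zeros kept (-0.33, adjusted p = 0.0569) and against a 1.5-fold change (-0.33, adjusted p = 1), for Zfp36 against that change (0.85, adjusted p = 0.0717), and for Zfp36l1 with zeros kept (0.63, adjusted p = 0.0806), where its second probe enters.

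With the 6 arrays taken singly and no replicate block, the adjusted p was 0.034 for Zfp36l2 (-0.33) and at most 0.000102 for the other 3 genes, and 1376 features passed. With the set as a random replicate block, it was 0.00367 for Zfp36l2, and 2282 features passed. The block changed no call of the 4 genes. With a dye term added after the data were seen, 1865 features passed.

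The number of features called, 1663 as reported (826 higher, 837 lower), ran from 533 to 1685 without a set or an array (352 to 854 higher and 181 to 831 lower). It was 639 (347 higher, 292 lower) with only the arrays with treated RNA in Cy5, 655 (408 higher, 247 lower) with only the swapped ones, 962 (492 higher, 470 lower) with zeros kept, and 141 (124 higher, 17 lower) against a 1.5-fold change. The number of machinery genes called, 5 as reported, was 2 to 5 without a set or an array, 3 and 2 in the single orientations and 1 against a 1.5-fold change. The cause was not tested.

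The lean of Zfp36l1 to Cy5, 0.011 as reported, lay between -0.014 and 0.035 without a set or an array, at -0.012 with zeros kept and at -0.0085 with missing values allowed. Cnot4, called as higher, turned to -0.022 with only the swapped arrays. Of genes that had not passed, Lsm5 (0.025) and Ppp2ca (-0.022) changed sign with only those arrays, and Exosc9 (-0.039) with only the others. Without a set or an array, Lsm5 ran from -0.40 to 0.093, Tob1 from -0.12 to 0.32 and Exosc9 from -0.0021 to 0.078.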
